A study of Mus musculus with 12 samples.

Results

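The genes that store, import, export and sense iron were followed in CD11b+ myeloid cells of MC38 tumors (a mouse colon carcinoma line grown under the skin) with and without local irradiation, in RNA bound by YTHDF2 and in the RNA it was taken from. The 10 genes were *Fth1*, *Ftl1*, *Tfrc*, *Slc40a1*, *Hmox1*, *Ireb2*, *Aco1*, *Slc11a1*, *Slc11a2* and *Ncoa4*, matched by gene symbol among the 54446 gene identifiers of the count tables, and all 10 were found. They were chosen as a family and for the contrast of the ferritins, known from these data to be low in the YTHDF2 IP, with the transport and regulator genes. Their IP over Input values in Ctrl and in IR are therefore given as a description without a test, and the tests concern what irradiation did to them.

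All 12 libraries came from WT mice, which in this study carry floxed *Ythdf2* alleles without Cre, so that YTHDF2 was present in every group. IR tumors received a single local dose of 20 Gy and were collected 3 days later, and Ctrl tumors were not irradiated. CD11b+ cells of pooled mice were lysed, a small part of the lysate was kept as Input, and the rest was immunoprecipitated with an antibody to YTHDF2 (IP; RIP-seq). This gave 4 groups (Ctrl Input, IR Input, Ctrl IP and IR IP) of 3 libraries each. The methods call the 3 libraries of a group technical replicates of pooled animals, so the p-values measure the spread between these libraries, which may be technical. No mock or IgG precipitate was analysed here, and Input is the only background. The age of the mice is not in the labels.

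Iron enters most cells on transferrin through the transferrin receptor (*Tfrc*), is moved into the cytosol by DMT1 (*Slc11a2*), is held in a ferritin shell of heavy (*Fth1*) and light (*Ftl1*) chains, and leaves through ferroportin (*Slc40a1*). Macrophages are known for a large flux of iron from old red cells, in which haem oxygenase 1 (*Hmox1*) opens the haem ring, NRAMP1 (*Slc11a1*) pumps metal out of the phagosome and NCOA4 carries ferritin to the lysosome. When iron is low, the iron regulatory proteins IRP1 (*Aco1*, which is a cytosolic aconitase when it holds an iron-sulfur cluster) and IRP2 (*Ireb2*) bind a hairpin, the iron-responsive element. A hairpin in the 5′ UTR blocks translation of the message, and hairpins in the 3′ UTR protect the message from decay. YTHDF2 is a reader of the RNA mark m6A that is known to bring marked messages to decay.

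The hairpin letters are shown because they divide the genes in a way that the choice of genes did not use. The transcripts of GENCODE M21 (mm10) were searched on the transcript strand for the loop letters CAGTGN, with the 5 bases before the loop able to pair with the 5 bases after it (G with U included) and a C before the paired bases. The 6 capitals of each sequence mark the loop. A single match lay in the 5′ UTR of *Fth1* (chr19:9982732-9982761, plus strand), of *Ftl1* (chr7:45459778-45459807, minus strand) and of *Slc40a1* (chr1:45925464-45925493, minus strand), and 4 matches lay in the 3′ UTR of *Tfrc* (all on the plus strand, at chr16:32631219-32631248, chr16:32631598-32631627, chr16:32631663-32631692 and chr16:32631710-32631739, in this order).
Fth1 5′ UTR: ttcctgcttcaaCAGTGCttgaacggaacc
Ftl1 5′ UTR: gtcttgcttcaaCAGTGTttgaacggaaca
Slc40a1 5′ UTR: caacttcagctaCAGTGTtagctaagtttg
Tfrc 3′ UTR, site 1: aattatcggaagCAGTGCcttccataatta
Tfrc 3′ UTR, site 2: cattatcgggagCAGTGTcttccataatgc
Tfrc 3′ UTR, site 3: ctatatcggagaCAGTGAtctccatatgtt
Tfrc 3′ UTR, site 4: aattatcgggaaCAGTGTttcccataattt

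Of 21732 representative protein-coding transcripts, 21 (0.097%) held this pattern in the 5′ UTR and 110 (0.506%) in the 3′ UTR. *Tfrc* was the 1 transcript with 3 or more matches in its 3′ UTR. The loop letters with the C at its place, but without the pairing, were present in 64.6% of transcripts, so the pairing carries most of the specificity of the search. The other 6 genes had no match with these letters, which says nothing about hairpins of other forms. The transcripts also differed in size. *Fth1* (929 bases, 4 exons) and *Ftl1* (968 bases, 4 exons) were short against the median of 2556 bases, *Hmox1* had 1569 bases, and *Tfrc* (4890 bases, 19 exons) and *Ireb2* (5770 bases, 22 exons) were long. GGACT, a common form of the m6A consensus, was searched on the same strand. It occurred in 87.0% of transcripts, but not in those of *Fth1* and *Hmox1*, 1 time in *Ftl1*, and 6 times each in *Tfrc*, *Slc40a1* and *Aco1*.

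By M21 on mm10, the storage genes lie at chr19:9980598-9985098 (*Fth1*), chr7:45457944-45459884 (*Ftl1*) and chr14:32159865-32179855 (*Ncoa4*). The uptake and transport genes lie at chr16:32608920-32632794 (*Tfrc*), chr15:100387898-100425072 (*Slc11a2*), chr1:74375195-74386062 (*Slc11a1*) and chr1:45908068-45926523 (*Slc40a1*). *Hmox1* lies at chr8:75093621-75100589, *Aco1* at chr4:40143081-40198338 and *Ireb2* at chr9:54863789-54912530. In *Ftl1*, 464 exon bases overlap a miRNA gene on the same strand and an uncurated locus on the opposite strand, and in *Slc11a2* 402 bases overlap the opposite-strand gene *Gm5475*. The strand option of the counting is not given in the sources used here, so in these stretches the overlapping genes cannot be told apart. The other 8 genes overlap no exon of another gene.

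Reads on genes ranged from 34445784 to 42382532 in the 6 Input libraries and from 27852948 to 33882664 in the 6 IP libraries, and all 10 genes passed the minimum of 10 counts in at least 3 libraries in every comparison. Reads that the counting assigned to no gene were more frequent in the IP (41.8% to 54.1%) than in Input (24.6% to 27.0%), and most frequent in IR IP. The counts do not tell whether such reads lie in introns, on the other strand or between genes. The cells were myeloid by their markers. The summed level of 6 pan-myeloid markers was 4520 to 4615 CPM (counts scaled to a common library size) in Ctrl Input and 5704 to 5785 CPM in IR Input. For tumor cells, the defining keratins were near 0 (means of 0.00855 CPM for *Krt8* and 0.192 CPM for *Krt18* in Ctrl Input). Globin and other erythroid markers summed to at most 1.93 CPM in any Input library. A set of 4 epithelial markers summed to 119 to 127 CPM in Ctrl Input and 90.8 to 96.8 CPM in IR Input, nearly all of it *Cdh1*.

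Levels were compared between genes per kilobase of merged exons, since longer genes collect more reads. In Ctrl Input *Ftl1* (4064 CPM per kb) and *Fth1* (1141 CPM per kb) stood far above the rest, followed by *Hmox1* (18.4), *Tfrc* (15.9), *Aco1* (12.4), *Slc11a1* (10.9), *Ireb2* (7.11), *Slc40a1* (4.36), *Ncoa4* (3.30) and *Slc11a2* (1.47 CPM per kb). Each neighbor pair in this order was separated in all 3 libraries. With the length of the representative transcript, which leaves out retained introns annotated in *Fth1*, the ferritins came closer (5625 CPM per kb for *Ftl1* and 4262 CPM per kb for *Fth1*), *Hmox1* and *Tfrc* were not separated, nor were *Ireb2* and *Slc40a1*, and *Slc11a1* (17.5) came before *Aco1* (14.6 CPM per kb). The ferritin messages were thus among the most abundant of these cells. Together they took 0.958% ± 0.0210 (SD, n = 3) of the reads on genes in Ctrl Input and 1.22% ± 0.0165 in IR Input. In the IP they took 0.225% ± 0.00970 in Ctrl and 0.287% ± 0.00560 in IR. By counts, *Ftl1* was gene number 7 in every Ctrl Input library and 3 or 4 in IR Input, and number 40 to 60 in Ctrl IP and 22 to 25 in IR IP. *Fth1* was gene number 9 in Ctrl Input and 7 in IR Input, and number 354 to 364 in Ctrl IP and 176 to 186 in IR IP.

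**Figure D1:**
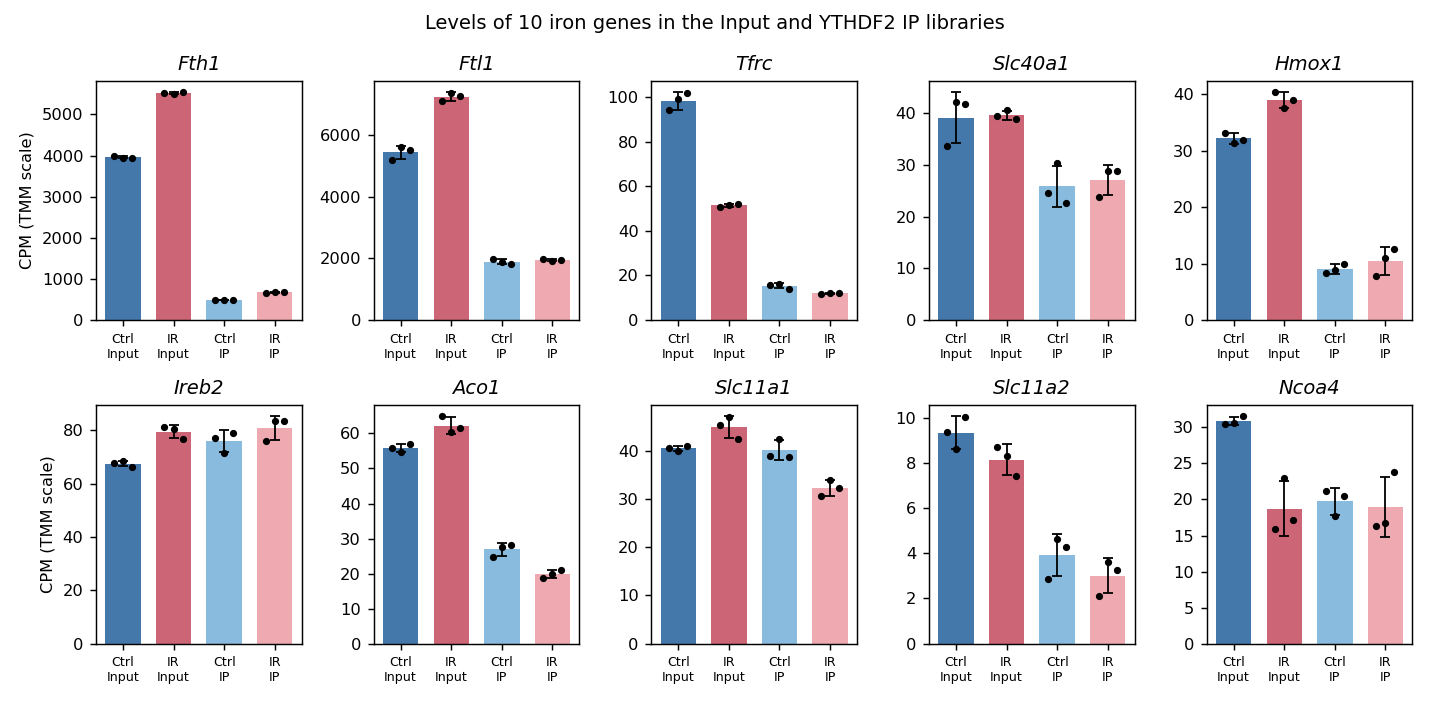
Level of each gene in the 4 groups, in CPM scaled by TMM over all 12 libraries. Bars are means, error bars the SD over 3 libraries and points the single libraries, and each panel has its own linear axis from 0; in *Fth1*, *Ftl1*, *Tfrc* and *Hmox1* all IP libraries lie far below the Input libraries, and in *Ireb2* they lie at a similar height.

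The IP over Input values are described first, on the log2 scale. For the heavy chain *Fth1*, the level was 3984, 3941 and 3952 CPM in the Ctrl Input libraries and 485, 494.5 and 492 CPM in the Ctrl IP libraries. No IP library came near the Input libraries, and the fitted depletion was 7.66-fold in Ctrl (log2 -2.94 ± 0.0310, SE) and 7.88-fold in IR (log2 -2.98 ± 0.0281). The light chain *Ftl1* had 5209.6, 5607 and 5519 CPM in Ctrl Input and 1968, 1899 and 1824 CPM in Ctrl IP. Its depletion was smaller, 2.72-fold in Ctrl (log2 -1.45 ± 0.0342) and 3.59-fold in IR (log2 -1.84 ± 0.0265). Both transcripts are short and have the 5′ UTR hairpin shown above, and their IP over Input values differed. What set this difference was not tested. Within each library, 1.31, 1.42 and 1.40 light-chain reads were counted per heavy-chain read in Ctrl Input, and 4.05, 3.84 and 3.71 in Ctrl IP.

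The transport and regulator genes did not form a uniform contrast to the ferritins. *Tfrc* was depleted 6.05-fold in Ctrl and 4.14-fold in IR, less than *Fth1* (7.66-fold and 7.88-fold). It had 94.1, 99.0 and 102 CPM in Ctrl Input against 15.8, 16.3 and 14.1 CPM in Ctrl IP (log2 -2.60 ± 0.0753 in Ctrl and -2.05 ± 0.0972 in IR). *Hmox1* followed, with 33.2, 31.4 and 31.9 CPM against 8.32, 8.89 and 9.97 CPM (log2 -1.76 ± 0.107 in Ctrl and -1.85 ± 0.166 in IR). Only *Ireb2* and *Slc11a1* were close to Input in Ctrl. *Ireb2* had 67.7, 68.3 and 66.3 CPM in Ctrl Input and 77.2, 71.4 and 79.1 CPM in Ctrl IP (log2 0.25 ± 0.0594), and *Slc11a1* 40.5, 39.9 and 41.0 CPM against 39.0, 42.4 and 38.7 CPM (log2 0.06 ± 0.0742). In between lay the exporter *Slc40a1* (log2 -0.52 ± 0.112 in Ctrl), the ferritin receptor *Ncoa4* (-0.57 ± 0.0946), the other regulator *Aco1* (-0.98 ± 0.0767) and *Slc11a2* (-1.17 ± 0.198, on 69 to 148 counts in each IP library). The regulators *Aco1* and *Ireb2*, whose proteins bind the same hairpins therefore differed in Ctrl, one depleted and the other near Input. Over all genes tested, the median of IP over Input was 0.02 in Ctrl with quartiles of -0.81 and 0.93, and 34.6% of genes were called lower and 34.1% higher in the IP (30.4% and 32.1% in IR); since the genes were chosen on this contrast, nothing is read from their place in it.

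Part of the spread went with transcript length, which the choice did not use. Across 13022 genes in Ctrl, the median of log2 IP over Input was -1.11 for transcripts under 1 kb, -0.31 from 1 to 2 kb, -0.12 from 2 to 4 kb and 0.18 for longer ones, and Spearman's rho with length was 0.244 in Ctrl and 0.356 in IR (a description across genes, which share libraries and are not independent replicates). Genes without GGACT had a median of -0.67 in Ctrl against -0.07 for those with it. Spearman's rho with GGACT per kilobase was only 0.0917 in Ctrl and 0.0696 in IR. Short transcripts have less room for these letters, and length and GGACT were not separated. Low IP over Input was found in *Fth1* and *Hmox1*, which have no GGACT, and in *Tfrc*, which has 6. These genes were chosen on IP over Input, so nothing about the letters is read from them. The part of length or of these letters in the values of single genes was not tested.

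**Figure D2:**
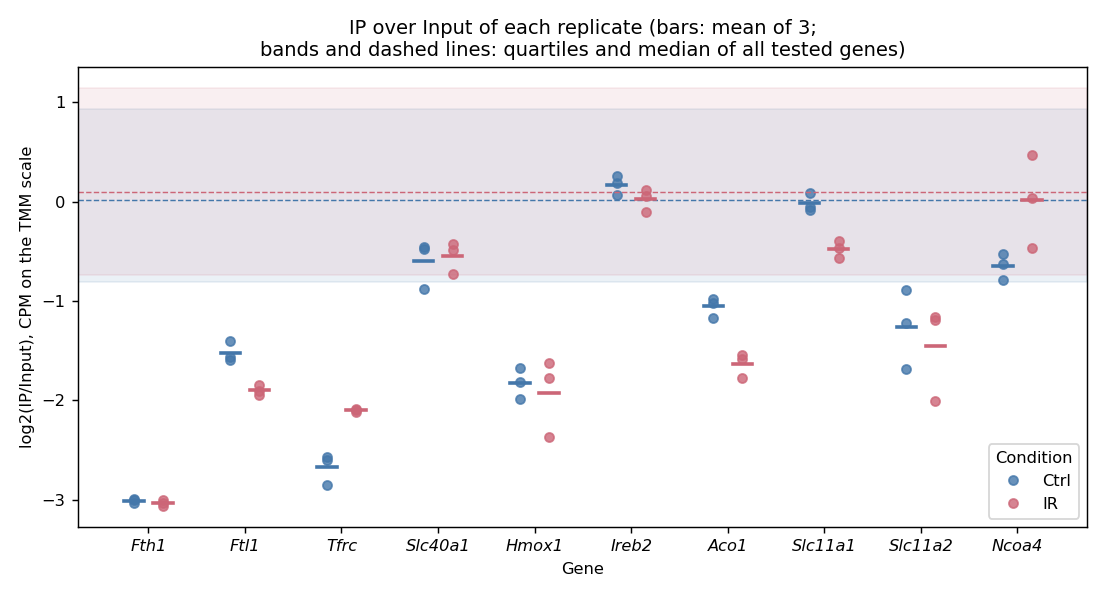
Log2 of IP over Input for the 10 genes in each replicate (IP and Input of the same number, which may share only that number). Points are single replicates (blue Ctrl, red IR) and short bars their means. Bands and dashed lines are the quartiles and median of all tested genes. The genes were chosen on this contrast, so nothing is read from their place against the bands.

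The change of message level with irradiation was tested in Input with edgeR's quasi-likelihood test, with p-values adjusted by Benjamini-Hochberg over 16914 genes. Irradiation was followed by more ferritin message and less transferrin receptor message. Of the 10 genes, 4 were higher in IR and 2 lower, beside 21.0% higher and 23.9% lower among all genes tested. Storage genes split. *Fth1* rose from 3984, 3941 and 3952 CPM to 5525, 5504 and 5535 CPM (1.32-fold, log2 0.40 ± 0.0211, adjusted p = 1.8e-14), and *Ftl1* from 5209.6, 5607 and 5519 CPM to 7104, 7389 and 7268 CPM (1.26-fold, log2 0.33 ± 0.0236, adjusted p = 5.65e-12). Every IR Input library was above every Ctrl Input library for both chains. *Ncoa4*, the receptor that takes ferritin to the lysosome, went the other way, from 30.5, 30.6 and 31.6 CPM to 15.9, 23.0 and 17.1 CPM (log2 -0.81 ± 0.0931, adjusted p = 5.77e-08), again without overlap, though replicate 2 of IR Input lay above the other two.

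*Tfrc* had the largest change of the 10 genes, from 94.1, 99.0 and 102 CPM to 50.7, 51.6 and 52.1 CPM (0.496-fold, log2 -1.01 ± 0.0438, adjusted p = 2.99e-16). *Tfrc*, with 4 matches to the hairpin pattern in its 3′ UTR, fell, and *Fth1* and *Ftl1*, with a match in the 5′ UTR, rose. *Slc40a1*, which also has a 5′ UTR match, did neither by the test (33.6, 42.2 and 41.8 CPM in Ctrl Input and 39.5, 40.6 and 38.8 CPM in IR Input, log2 -0.06 ± 0.0671, adjusted p = 0.464). Any part of the hairpins in these changes was not tested. Per kilobase of merged exons, *Tfrc* went from place 4 among the 10 genes in Ctrl Input to place 7 in IR Input, where it overlapped *Ireb2*. *Hmox1* rose slightly, from 33.2, 31.4 and 31.9 CPM to 40.3, 37.6 and 38.9 CPM (1.15-fold, log2 0.20 ± 0.0586, adjusted p = 0.00746), and so did *Ireb2*, from 67.7, 68.3 and 66.3 CPM to 81.3, 80.4 and 76.7 CPM (1.12-fold, log2 0.16 ± 0.0436, adjusted p = 0.00404). Both regulators of the hairpins were thus measured, and the change of *Aco1* did not pass (log2 0.08 ± 0.0476, adjusted p = 0.2). For *Slc11a1*, log2 was 0.07 ± 0.0548 (adjusted p = 0.33). *Slc11a2* was on the edge, with 9.37, 8.60 and 10.04 CPM against 8.71, 8.31 and 7.40 CPM (log2 -0.28 ± 0.114, adjusted p = 0.0508), and it was called lower in 3 of 9 alternative analyses. The CPM are scaled over all 12 libraries, and on that scale the Input changes come out higher by a median of 0.079 log2 units than in the fit of the 6 Input libraries.

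Cell type markers moved in the same Input libraries. Among all genes tested, 21.0% were called higher and 23.9% lower. Neutrophil markers summed to 5749 to 6479 CPM in Ctrl and 8100 to 8843 CPM in IR (4 of 6 genes called higher). Most of this was *S100a8* (2100 and 2900 CPM) and *S100a9* (3520 and 4900 CPM). *Ly6g* (log2 0.118, adjusted p = 0.43, edgeR) and *Cxcr2* (0.0927, adjusted p = 0.11) were not called. Monocyte markers summed to 1516 to 1603 CPM and 1750 to 1871 CPM (3 of 4 higher, 1 lower), and macrophage markers to 206 to 208 CPM and 195 to 206 CPM (4 of 6 higher, 2 lower). The part of cell types in the changes of the iron genes was not tested. In bulk RNA, fewer cells of a type and less of a message per cell cannot be told apart. Erythroid markers were near 0 in both conditions (0.943 to 1.46 CPM in Ctrl and 1.80 to 1.93 CPM in IR, none called of 2 tested).

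**Figure D3:**
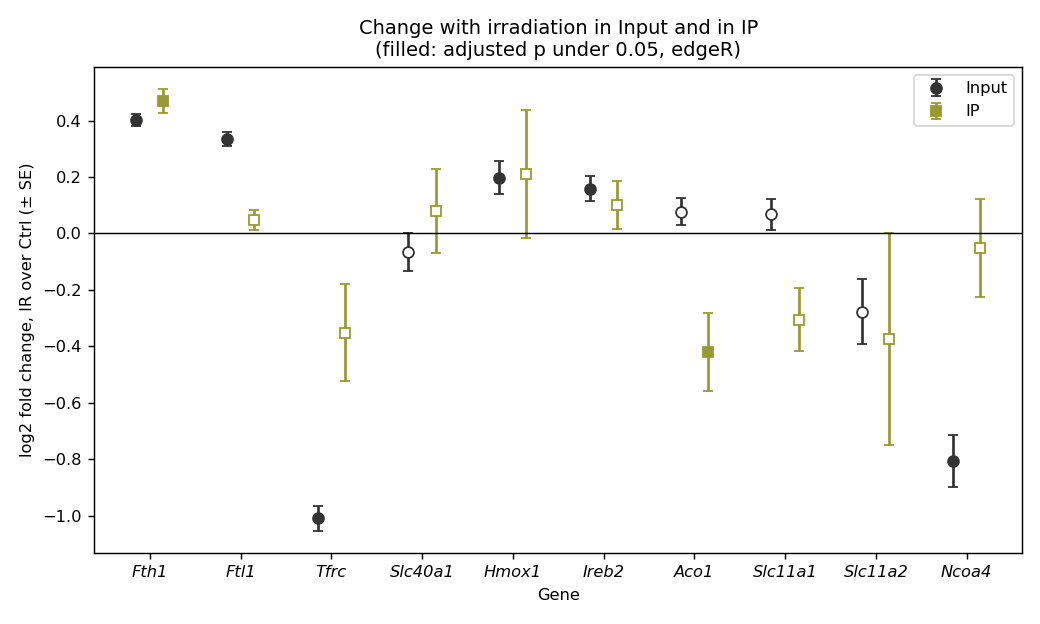
Log2 fold change of IR over Ctrl for the 10 genes in Input (black circles) and in the IP (olive squares), with SE; filled symbols passed an adjusted p of 0.05 (edgeR). *Fth1* rose in both, *Ftl1* in Input (log2 0.33) and not by the test in the IP (0.05), and *Tfrc* and *Ncoa4* fell in Input.

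In the IP itself, irradiation called 1 of the 10 genes higher and 1 lower, beside 6.12% higher and 9.85% lower of 19255 genes. *Fth1* rose from 485, 494.5 and 492 CPM in Ctrl IP to 661, 687 and 677 CPM in IR IP (1.39-fold, log2 0.47 ± 0.0434, adjusted p = 1.11e-06). Its rise in the IP was close in size to that in Input. *Ftl1*, in contrast, had 1968, 1899 and 1824 CPM in Ctrl IP and 1981, 1922 and 1945 CPM in IR IP (log2 0.05 ± 0.0359, adjusted p = 0.417), with overlapping groups. With library size only in place of TMM, *Ftl1* was called higher in the IP (log2 0.25, adjusted p = 0.000192). *Aco1* fell from 24.8, 27.7 and 28.2 CPM to 18.9, 20.03 and 21.05 CPM (log2 -0.42 ± 0.137, adjusted p = 0.0481). This call was lost without any 1 of the 6 libraries (adjusted p 0.0557 to 0.171) and in 5 of 9 other alternatives. *Tfrc* had 15.8, 16.3 and 14.1 CPM in Ctrl IP and 11.8, 12.1 and 11.99 CPM in IR IP (log2 -0.35 ± 0.172, adjusted p = 0.192), and *Slc11a1* 39.0, 42.4 and 38.7 CPM and 30.6, 33.8 and 32.2 CPM (log2 -0.31 ± 0.113, adjusted p = 0.0803); neither passed, although the 3 IR libraries lay below the 3 Ctrl libraries in both genes. The adjusted p of the other 5 genes lay between 0.489 and 0.885.

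Whether irradiation changed the IP relative to Input was tested as the interaction of condition and fraction over all 12 libraries and 20720 genes. Of the 10 genes, 2 rose in IP over Input and 3 fell, beside 6.28% higher and 13.9% lower of all genes, whose median change was -0.08. *Ftl1* fell by 0.37 ± 0.0431 on the log2 scale (adjusted p = 2.34e-06), from -1.40, -1.56 and -1.60 in the Ctrl replicates to -1.84, -1.94 and -1.90 in the IR replicates. *Fth1* kept its low value, -3.04, -2.99 and -3.01 in Ctrl and -3.06, -3.001 and -3.03 in IR (change -0.02 ± 0.0339, adjusted p = 0.77). The light-chain reads per heavy-chain read of a library, which need no scaling, show that the chains came closer in the IP but not which of them moved. In Ctrl IP these were 4.05, 3.84 and 3.71 and in IR IP 2.997, 2.80 and 2.87, without overlap, against 1.31, 1.42 and 1.40 in Ctrl Input and 1.29, 1.34 and 1.31 in IR Input. The change of the ratio was -0.42 log2 units in the IP and -0.36 units after subtracting Input of the same number (two-sided exact permutation p = 0.1 for each, the smallest that 3 against 3 allows, and 0.15 after adjustment over 12 ratio comparisons).

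*Tfrc* moved in the opposite direction to *Ftl1*, with IP over Input rising from -2.57, -2.60 and -2.85 to -2.09, -2.09 and -2.11 (change 0.57 ± 0.114, adjusted p = 0.00106). Its message had fallen by 1.01 log2 units in Input and by less in the IP. *Ncoa4* had the same arrangement, with -0.53, -0.79 and -0.62 in Ctrl and 0.04, -0.46 and 0.47 in IR (change 0.66 ± 0.216, adjusted p = 0.035). The IR values of *Ncoa4* were spread over almost 1 log2 unit, its IP level hardly differed between conditions (21.1, 17.7 and 20.5 CPM in Ctrl IP and 16.3, 16.7 and 23.8 CPM in IR IP), and the call was lost without any 1 of 6 libraries (the 3 of Ctrl Input, Ctrl IP replicate 2, and IR Input replicates 1 and 3, adjusted p up to 0.108).

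The other 2 calls were decreases. For *Aco1*, IP over Input went from -1.17, -0.98 and -1.02 to -1.78, -1.59 and -1.55 (change -0.58 ± 0.117, adjusted p = 0.00102), whereas for *Ireb2* it went from 0.19, 0.06 and 0.25 to -0.10, 0.05 and 0.12 (change -0.15 ± 0.091, adjusted p = 0.307). Counted within libraries, *Aco1* reads per *Ireb2* read were 0.322, 0.389 and 0.356 in Ctrl IP and 0.249, 0.240 and 0.253 in IR IP, again without overlap (exact permutation p = 0.1, adjusted 0.15). For the phagosomal pump *Slc11a1* the values went from -0.05, 0.09 and -0.08 to -0.56, -0.47 and -0.40 (change -0.46 ± 0.116, adjusted p = 0.00667). This gene, at the level of Input in Ctrl, was below it in all IR replicates. Its call was lost without Ctrl IP replicate 2 (change -0.35, adjusted p = 0.0527). The changes of *Slc40a1* (0.05), *Hmox1* (-0.07) and *Slc11a2* (-0.19) did not pass (adjusted p 0.766 to 0.879).

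The decreases depend on how the libraries are scaled. With library size alone in place of TMM, the median over all genes was 0.31 log2 units higher. *Ftl1* (-0.06, adjusted p = 0.444), *Aco1* (-0.27, adjusted p = 0.111) and *Slc11a1* (-0.15, adjusted p = 0.442) then lost their calls, and *Fth1* turned to a called rise (0.29, adjusted p = 1.46e-06). *Tfrc* (0.88, adjusted p = 1.7e-05) and *Ncoa4* (0.97) stayed called higher. DESeq2's size factors kept all 5 calls. The ratios of reads within a library do not depend on the scaling.

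**Figure D4:**
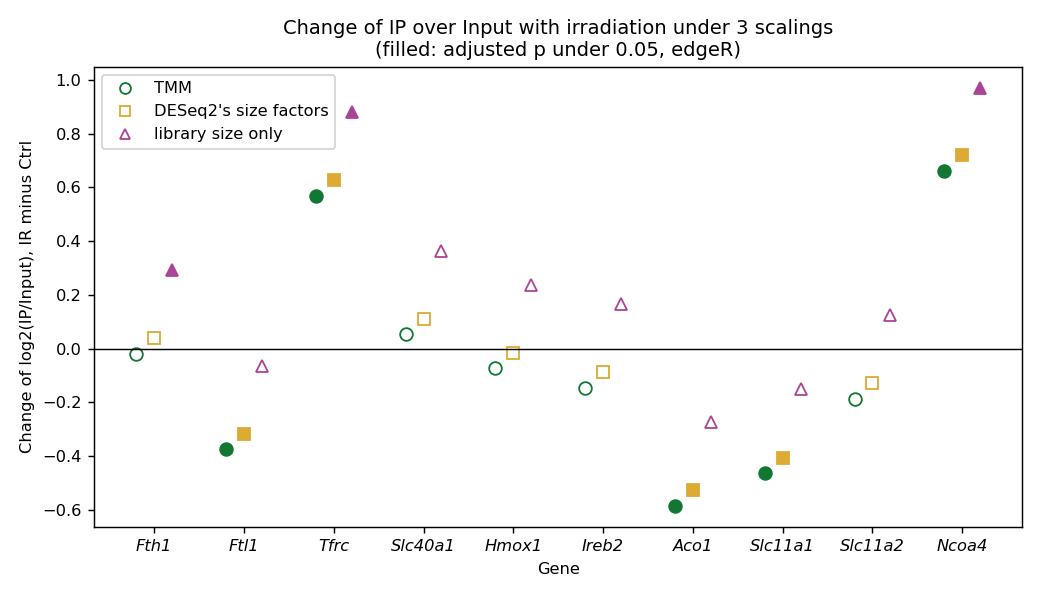
Change of log2 IP over Input with irradiation (IR minus Ctrl) for the 10 genes under 3 scalings of the libraries; filled symbols passed an adjusted p of 0.05 (edgeR). The order of the genes is the same under TMM, DESeq2's size factors and library size only, and the whole set lies higher with library size only, where *Ftl1*, *Aco1* and *Slc11a1* are open.

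Another 79 genes of iron and haem biology were counted by list in the same comparisons. In Input, 18 of 65 tested were higher in IR and 15 lower, beside 21.0% higher and 23.9% lower of all genes. Haem breakdown and transport had 4 of 8 higher and none lower. Among the higher were *Blvrb*, a biliverdin reductase (56.0 ± 1.08 CPM in Ctrl Input and 78.7 ± 3.64 CPM in IR Input, SD, n = 3, log2 0.41, adjusted p = 3.93e-08), and *Pgrmc1*, a haem-binding membrane protein (log2 0.22). Of storage genes and iron chaperones, 2 of 6 rose and 3 fell, with *Pcbp1*, a chaperone that delivers iron to ferritin (112 ± 2.0 CPM and 91.9 ± 1.43 CPM, log2 -0.36, adjusted p = 1.25e-08). The related chaperone *Pcbp2* rose (299 ± 10.4 CPM and 344 ± 7.57 CPM, log2 0.12, adjusted p = 0.00277). In the uptake list, *Lcn2*, which binds bacterial iron carriers and is made by neutrophils, had 1190 ± 41.4 CPM in Ctrl Input and 1670 ± 37.3 CPM in IR Input (log2 0.41, adjusted p = 2.32e-12). Among regulators, *Nfe2l2*, an activator of ferritin and haem oxygenase genes, rose (log2 0.20, adjusted p = 0.000129) and *Bach1*, a repressor of the same genes, fell from 62.5 ± 2.09 to 45.5 ± 0.198 CPM (log2 -0.54, adjusted p = 5.37e-10), as did *Hif1a* (log2 -0.55). Mitochondrial iron genes had 6 of 22 higher and 5 lower, haem synthesis 3 of 11 in each direction.

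Most of these genes were lower in the IP than in Input. In Ctrl, 38 of 65 tested were called lower and 10 higher (median log2 -0.50, beside 0.02 for all genes, of which 34.6% were lower and 34.1% higher), and in IR 39 of 67 were lower and 11 higher (median -0.73, beside 0.10 for all genes, of which 30.4% were lower and 32.1% higher). Haem breakdown and transport had no gene called higher in either condition and 6 of 8 lower in both. The haem synthesis list included *Tspo*, a protein of the outer mitochondrial membrane, with 50.1 ± 0.736 CPM in Ctrl Input against 6.88 ± 0.964 CPM in Ctrl IP (log2 -2.79, adjusted p = 1.32e-13), close to the value of *Fth1*. In mitochondrial iron and iron-sulfur cluster genes, 16 of 22 were lower and 4 higher in Ctrl. Some genes were higher in the IP. *Keap1*, the inhibitor of the *Nfe2l2* product, had 82.9 ± 1.82 CPM in Ctrl Input and 202 ± 23.3 CPM in Ctrl IP (log2 1.36, adjusted p = 5.76e-12), *Mtf1*, a metal-sensing transcription factor, had log2 1.33, and *Herc2*, a ubiquitin ligase that controls NCOA4, had log2 0.88. *Nfe2l2* (log2 -1.09) and *Hif1a* (log2 -2.01) were lower in the IP.

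**Figure D5:**
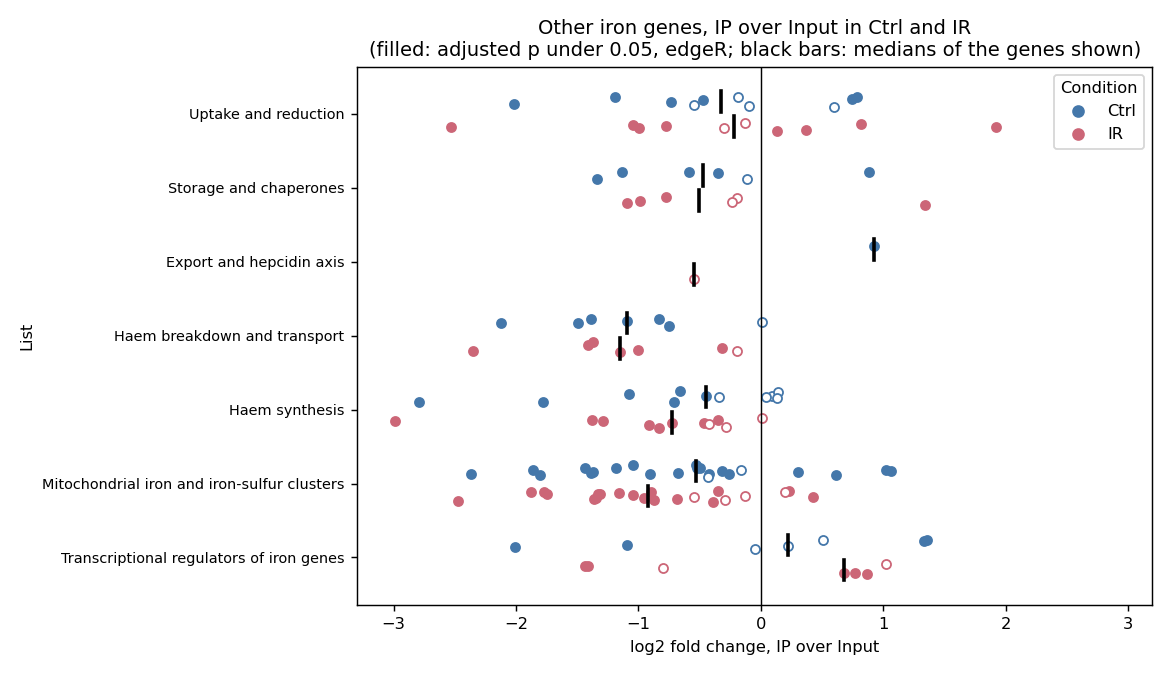
Log2 fold change of IP over Input for the 64 other iron genes that averaged 20 counts or more in a library, by list, in Ctrl (blue) and IR (red). Filled points passed an adjusted p of 0.05 (edgeR) and black bars are medians of the genes shown; most points lie left of 0 in the haem and mitochondrial lists, and both sides are filled among the transcriptional regulators.

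In the IP itself, 3 of 67 of these genes rose with irradiation and 8 fell (6.12% and 9.85% of all genes), and IP over Input rose in 4 of 69 and fell in 16 (6.28% and 13.9% of all genes). *Bach1* rose (change 0.75 ± 0.107, adjusted p = 3.31e-05), from 57.3 ± 1.87 CPM in Ctrl IP to 70.1 ± 6.96 CPM in IR IP while its Input fell. *Hif1a* (change 0.63, adjusted p = 0.0356), *Herc2* (0.48, adjusted p = 0.000928) and the haemopexin receptor *Lrp1* (0.62, adjusted p = 2.46e-07) also rose. *Lcn2* fell like *Ftl1* (change -0.49 ± 0.052, adjusted p = 8.74e-07), with 279 ± 4.69 CPM in Ctrl IP and 279 ± 10.6 CPM in IR IP while its Input rose. *Keap1* (-0.57, adjusted p = 0.00552) and *Mtf1* (-0.44, adjusted p = 0.00162) fell as well, as did *Slc25a28*, a mitochondrial iron importer (-0.77, adjusted p = 3.68e-06), and *Fdxr*, the ferredoxin reductase used in iron-sulfur cluster assembly (-0.84, adjusted p = 0.000245). With library size only, 7 of these genes rose and 3 fell.

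The genes with the most similar pattern over the 12 libraries were found by Pearson's r of log2 CPM among 11728 genes, as a description over libraries that fall into separate Input and IP groups. They were *Cst3* (r = 0.999), *Ccl17* and *Calm3* for *Fth1*, and *Rps20* (r = 0.999), *Lcn2* and *Myl6* for *Ftl1*. For *Tfrc* they were *Naa50* (r = 0.996), *Flna* and *Cacybp*, and for *Hmox1* they were *Cox7b* (r = 0.996), *Asna1* and *Cox8a*.

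Ferritin genes have copies in the mouse genome, some of those of *Ftl1* near-identical, which can take or lose reads when reads are placed uniquely. Copies were taken as annotated transcripts with at least 80% identity over at least 50% of the ferritin transcript. *Fth1* had 2 such pseudogenes, which held 0.064% to 1.45% of the reads of gene and copies together. *Ftl1* had 17, of which 16 had reads, with 3.85% to 4.66% of the total in each library. Most of these fell on *Ftl1-ps1*, which is 99.6% identical (6993 to 10601 counts in the Input libraries and 1730 to 2262 in the IP libraries). Reads placed on several sites were not counted and are not part of these shares.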

How the data were processed

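RIP-seq was read as the raw HTSeq counts per gene deposited by the authors, 1 table for each of the 12 libraries. Per the labels and the study's methods, reads were trimmed (Trimmomatic 0.39), aligned with HISAT to mm10 (as a reverse-stranded library) and counted on GENCODE M19, with no normalization. The strand option of the counting and the handling of duplicates are not given in the sources used here. The labels describe isolation of poly(A) RNA before the precipitation and the methods describe total RNA, and they name different suppliers of the antibody. Identifiers were matched to GENCODE M21 on the same build (99.9% matched, 97.8% with the same version).

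A minimum of 10 counts, reached in 3 or more of the libraries compared, was set for the test with edgeR 4.0.16 (R 4.3.3; TMM, quasi-likelihood test, Benjamini-Hochberg, threshold 0.05). The fit was tested on simulated data. CPM used TMM over all 12 libraries. The 10 genes, the lists and the tests were chosen with earlier results of these data known. From each other list and comparison, at most 2 called genes per direction with a mean of at least 100 counts were named. DESeq2 1.42.0, other scalings, filters, a replicate block and the loss of each library were alternatives. Copies were found with BLAST 2.17.0. Depth (27852948 to 42382532 reads on genes) limits *Slc11a2* most, and intervals and SE cover these libraries only. The genes most alike to *Slc40a1* are not reported here.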

Additional observations from a re-analysis of the deposited data

Results flagged for a closer look

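In 5 of the 10 genes, IP over Input differed between IR and Ctrl by the test of the difference itself (interaction, edgeR, adjusted over 20720 genes). *Ftl1* (-0.37), *Aco1* (-0.58) and *Slc11a1* (-0.46) were lower in IR on the log2 scale, and *Tfrc* (0.57) and *Ncoa4* (0.66) were higher. In *Tfrc* and *Ncoa4* the Input level had fallen with irradiation by 1.01 and 0.81 log2 units, while the IP changes did not pass (-0.35, adjusted p = 0.192, and -0.05, adjusted p = 0.885). In *Ftl1* the Input had risen by 0.33 and the IP change was 0.05. In *Aco1* and *Slc11a1* the Input changes did not pass, and the IP was lower by 0.42 and 0.31, only the first of which passed. The 3 decreases were not called with library size only. All groups had 3 libraries, too few for a check of single outlying libraries.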

How the results depend on the processing

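In Input, the calls of *Fth1*, *Ftl1*, *Tfrc*, *Ireb2* and *Ncoa4* held in all 9 alternatives and without each of 6 libraries; *Hmox1* lost its call with all 12 libraries in one fit (adjusted p = 0.175), *Slc40a1* was called lower without Ctrl Input replicate 1, and *Slc11a2* without Ctrl Input replicate 2 or IR Input replicate 1. Same-numbered Input and IP libraries hardly deviated together (r -0.0225 to 0.0398 over 11728 genes, and 2 of 6 Input libraries correlated best with their own number), so they may share only a number. With the replicate block, all 5 calls of the change in IP over Input remained (*Ftl1* -0.37, adjusted p = 2.06e-06; *Tfrc* 0.57; *Aco1* -0.58; *Slc11a1* -0.46; *Ncoa4* 0.67), *Slc11a2* was called lower in Input and *Aco1* lost its call in the IP (0 called lower). With library size only, the change of *Fth1* turned from -0.02 to 0.29, 0 of the 10 genes were called lower in IP over Input (3 with TMM), and 3 were higher and 0 lower in the IP (1 and 1 with TMM). Calls lower in the IP were also 0 with DESeq2's size factors, with 10 counts in every library and with protein-coding genes only, and 3 with all 12 libraries in one fit. Other iron genes with library size only were 8 higher and 2 lower in the IP (3 and 8), and 7 higher and 3 lower in the change (4 and 16); 10 were lower in the change with 10 counts in every library, and 5 were lower in Input with all 12 libraries in one fit (15). Of all genes, library size only gave 2665 higher and 828 lower in the IP (1179 and 1896; 76.3% against 38.3% of calls higher) and 2862 and 877 in the change (1301 and 2881; 76.5% against 31.1%). All 12 libraries in one fit gave 2125 and 2952 in the IP and 1500 lower in Input (4047), where 63.6% of calls were higher (46.8%). Without 1 library, all genes higher in the IP ranged from 715 to 1056 (769, 769 and 715 without Ctrl IP replicates 1, 2 and 3) and other iron genes from 1 to 3 higher and 4 to 6 lower, and 0 to 0 of the 10 genes were lower there; in the change, 1 to 2 of the 10 were higher and 2 to 3 lower, and 3 to 7 other iron genes were higher (7 without IR IP replicate 1) and 10 to 17 lower (10 without Ctrl IP replicate 3). Other iron genes higher in IP over Input in IR were 7 to 11 (11; 7 without IR Input replicate 1). The causes were not tested.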
